A study of Schizosaccharomyces pombe with 4 samples.

Results

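The comparison set nascent RNA of wild-type fission yeast (Schizosaccharomyces pombe) after a shift to 37 °C against nascent RNA of wild-type cells at 30 °C, gene by gene. It used 3 of the 4 libraries of the series. The 37 °C library came from strain L972, genotype Wild-type h-, grown in complete medium at 26 °C and then held at 37 °C for 2 hours. At 30 °C there was replicate 1, also strain L972, Wild-type h-, and replicate 2, strain SP286, prp5::KanMx-prp5-WT, h+, which has the opposite mating type and a marked wild-type copy of prp5. Both 30 °C cultures were harvested in exponential growth with no shift, so the comparison joins a move out of 26 °C with a difference in final temperature, and no 26 °C library was analysed here. The fourth library, from the splicing mutant prp2-1 at 37 °C, was not part of the comparison. Each library is nuclear RNA from which polyadenylated and ribosomal RNA were removed, sequenced as single long cDNA reads, and the 3′ end of a read was taken as the position of RNA polymerase.

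As background, cells respond to heat through the factor Hsf1, which binds heat shock elements upstream of chaperone genes, and through the stress kinase Sty1 and its factor Atf1, which binds cyclic AMP response elements (CRE). Ribosomal protein genes, among the most heavily transcribed in growing yeast, often carry a promoter box named HomolD, and their mRNAs are known to fall under many stresses. Transcription by RNA polymerase II runs past the annotated end of a gene before the polymerase lets go, so nascent 3′ ends are found within genes and downstream of them.

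The 37 °C library held 32176 reads, against 123756 in 30 °C replicate 1 and 45318 in replicate 2. Of these, 26825 reads at 37 °C, 68777 in replicate 1 and 33018 in replicate 2 lay on protein-coding genes, on their strand. The libraries differed in the length of what was read. The median span of a protein-coding read on the genome was 979 nt at 37 °C, 362 nt in replicate 1 and 545 nt in replicate 2. The 3 libraries compared had no sequencing cell in common. Cells numbered 6 of 2016 at 37 °C, 6 of 2013 and 2014 for replicate 1, and 3 of 2015 for replicate 2. Library and run therefore cannot be told apart. Of the 37 °C reads on protein-coding genes, 2727 carry a read name also found in the prp2-1 library, for a reason not known. Cells also differed within replicate 2, with a median span of 752 nt in 1 cell and 328 and 339 nt in the others. Since 37 °C has 1 library, no p-value was computed, intervals cover counting error only, and every difference below is a difference between these libraries.

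The level of a gene was its share of all protein-coding reads of a library. A share cannot tell less RNA of 1 gene from more RNA of the others. Of 5124 annotated protein-coding genes, 962 had at least 30 reads over the 3 libraries and were compared. A gene was called when its share differed at least 2-fold in the same direction against both 30 °C libraries, with both exact 95% intervals of the ratio on that side of 1. This gave 42 genes higher at 37 °C (4.37% of 962) and 56 lower (5.82%). With median-of-ratios scaling in place of the share, which moves every log2 ratio by -0.41 against replicate 1 and -0.06 against replicate 2, 20 genes were higher and 79 lower. Without regard to size, 416 genes (43.2%) were above both 30 °C libraries and 282 (29.3%) below both. Both ratios of a gene share the same 37 °C reads, so agreement between them is not an independent repeat. Replicate 2 and replicate 1 also differed from each other: by the same size and interval rule, 199 genes (20.7%) differed between them, beside 296 (30.8%) for 37 °C against replicate 1 and 190 (19.8%) for 37 °C against replicate 2. Just short of the 2-fold line on the higher side lay lrs1, whose log2 ratio nearer to 0 was 1.00. On the lower side rps102 lay just past the line with -1.12 and rpl1101 just short of it with -0.9999.

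Chaperonin and co-chaperone genes were among the genes higher at 37 °C. The CCT chaperonin is a ring of 8 different subunits that folds actin and tubulin. All 8 of its genes were compared. In summed share they held 0.462% of reads at 37 °C (95% Wilson interval 0.388 to 0.551), against 0.247% in replicate 1 (0.213 to 0.287) and 0.233% in replicate 2 (0.187 to 0.291). The ratio was 1.87 against replicate 1 (1.47 to 2.37) and 1.98 against replicate 2 (1.48 to 2.67). Both intervals stayed above 1 in each of the other 11 ways of counting tried for this list, with log2 values between 0.45 and 0.99. Of the 8 genes, 2 were called higher and 0 lower, and 6 lay above both 30 °C libraries. The subunit gene cct6 (chromosome II, 942907 to 944922, plus strand) had 40 reads at 37 °C, against 28 in replicate 1 and 10 in replicate 2. As shares these were 14.9 reads per 10000 at 37 °C, against 4.07 and 3.03 at 30 °C. Its share at 37 °C was thus above both, by 3.66-fold against replicate 1 (2.20 to 6.16) and 4.92-fold against replicate 2 (2.42 to 11.04). The second called subunit, cct1 (chromosome II, 2307369 to 2309574, plus strand), had 15 reads at 37 °C, against 15 in the deeper replicate 1 and 7 in replicate 2, ratios of 2.56 and 2.64. Reads of cct2 numbered 17 at 37 °C, against 23 and 10, with ratios of 1.90 and 2.09, short of the rule. For cct5 there were 17 reads at 37 °C, against 27 and 9. Reads of cct4 numbered 10 at 37 °C, against 24 and 15, a level between both 30 °C libraries. Without cct6 the other 7 genes held 0.313% at 37 °C, against 0.206% and 0.203%, ratios of 1.52 (1.14 to 2.00) and 1.54 (1.11 to 2.16).

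Of 29 heat shock chaperone genes 16 had enough reads, and 1 was called higher, 0 lower. It was sti1 (chromosome III, 1261338 to 1263575, minus strand), whose product bridges Hsp70 and Hsp90. It had 34 reads at 37 °C, against 31 in replicate 1 and 18 in replicate 2. Its share was 12.7 reads per 10000 at 37 °C, against 4.51 and 5.45, ratios of 2.81 (1.68 to 4.73) and 2.32 (1.28 to 4.37). Over the list, 12 of the 16 genes lay above both 30 °C libraries and 3 below both. The median log2 ratio was 0.38 against replicate 1 and 0.21 against replicate 2, beside 0.24 and 0.08 over all 962 genes. The summed share was 1.85% at 37 °C (1.70 to 2.02), against 1.60% (1.504 to 1.69) and 1.51% (1.38 to 1.64). These ratios were 1.16 (1.04 to 1.29) and 1.23 (1.08 to 1.39). Without sti1 the ratio to replicate 1 was 1.11 (0.996 to 1.24), and the list also lost its call under several other ways of counting.

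Among the chaperones with the most reads, hsp90 had 73 reads at 37 °C, against 125 and 75, which made 27.2 per 10000 at 37 °C, against 18.2 and 22.7. The cytosolic Hsp70 gene ssa2 had 49 reads at 37 °C, against 109 and 54, ratios of 1.15 and 1.12. Its near-identical partner ssa1 had 3 reads at 37 °C, against 11 and 3, and reads may have been placed on either. The ribosome-associated Hsp70 gene sks2 had 40 reads at 37 °C, against 147 and 52, and lay below both. The small stress protein gene hsp9 had 31 reads at 37 °C, against 139 and 13, so the 30 °C libraries themselves stood on either side of 37 °C. The disaggregase gene hsp104 had 15 reads at 37 °C, against 23 and 12, ratios of 1.67 and 1.54. The small heat shock protein gene hsp16 had 4 reads at 37 °C, against 7 and 1, too few to compare.

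Promoter sequences of the 3 called chaperone genes are given for the heat shock element they may carry. Windows run from 250 bases before the annotated gene start to 50 after it, 5′ to 3′ on the strand of the gene, from the RefSeq ASM294v3 genome. Capitals mark the letters GAANNTTC, or TTCNNGAA, which read the same on both strands. The windows are chrIII:1263526-1263825, minus strand, for sti1, chrII:2307119-2307418, plus strand, for cct1 and chrII:942657-942956, plus strand, for cct6.
sti1: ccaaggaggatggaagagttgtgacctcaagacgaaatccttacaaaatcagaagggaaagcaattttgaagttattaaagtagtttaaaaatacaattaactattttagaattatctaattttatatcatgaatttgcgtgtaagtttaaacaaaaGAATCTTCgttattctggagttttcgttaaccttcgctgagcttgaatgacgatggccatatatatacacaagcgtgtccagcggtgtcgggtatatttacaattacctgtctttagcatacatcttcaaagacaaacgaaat
cct1: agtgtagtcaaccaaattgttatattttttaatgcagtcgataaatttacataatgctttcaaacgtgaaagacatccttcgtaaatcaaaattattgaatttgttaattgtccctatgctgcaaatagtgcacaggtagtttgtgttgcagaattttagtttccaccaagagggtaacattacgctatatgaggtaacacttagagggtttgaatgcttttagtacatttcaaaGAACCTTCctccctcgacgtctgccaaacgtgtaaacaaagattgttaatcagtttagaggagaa
cct6: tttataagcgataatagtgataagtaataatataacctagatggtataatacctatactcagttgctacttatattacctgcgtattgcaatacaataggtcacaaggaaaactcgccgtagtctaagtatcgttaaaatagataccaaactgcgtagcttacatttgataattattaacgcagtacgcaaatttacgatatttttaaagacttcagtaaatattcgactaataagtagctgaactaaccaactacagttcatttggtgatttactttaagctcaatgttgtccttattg
A match begins 93 bases before the start of sti1 and 15 bases before that of cct1, and the window of cct6 holds none. These letters occurred in 18 of 29 promoters of the heat shock chaperone list, in 1 of 8 of the CCT list, and in 1015 of 5112 promoters of all nuclear genes (19.9%). Among the genes called higher they occurred in 12 of 42. The CRE letters TGACGT or ACGTCA occurred in 9 of 33 promoters of the core environmental stress response list, against 5.91% of all promoters. A match is a description of these letters, not of a bound site.

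Genes of the core environmental stress response gave no shift of a single sign. The 33 listed genes include antioxidant and glycerol genes driven by Sty1, and 9 were compared, with 0 called in either direction. Their summed share was 0.608% at 37 °C, against 0.776% in replicate 1 and 0.472% in replicate 2, so 37 °C lay between. The 30 °C libraries differed most in gpd1, a glycerol-3-phosphate dehydrogenase gene, with 17 reads at 37 °C, against 114 in replicate 1 and 4 in replicate 2. The thioredoxin peroxidase gene tpx1 had 18 reads at 37 °C, against 35 and 14, ratios of 1.32 and 1.58. Of the other listed genes with the most reads, trx1 had 10 reads at 37 °C, against 67 and 11, and pmp3 had 9, against 44 and 16.

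Many of the highest ratios belonged to long genes. The largest by the smaller of both ratios was gpd3 (chromosome II, 578117 to 580056, plus strand), 1 of the glyceraldehyde-3-phosphate dehydrogenase genes of glycolysis, with 31 reads at 37 °C, against 16 and 4. Its ratios were 4.97 (2.64 to 9.72) and 9.54 (3.37 to 37.2). Next came mam1, the exporter of the mating pheromone M-factor, with 21 reads at 37 °C, against 9 in replicate 1 and 7 in the h+ replicate 2. Several chromatin and DNA repair genes followed with few reads each. The heterochromatin antagonist epe1 had 18 reads at 37 °C, against 8 and 7. The chromatin remodeller gene hrp1 had 16 reads at 37 °C, against 7 and 7. The co-repressor gene pst3 had 15 reads at 37 °C, against 10 and 6. The helicase gene rhp26 had 17 reads at 37 °C, against 14 and 6. For mms19, annotated as a regulator of the repair and transcription factor TFIIH, there were 16 reads at 37 °C, against 15 and 5. The GTPase gene ria1 had 19 reads at 37 °C, against 13 and 7, and the serine protease gene htr12 had 23, against 12 and 9. In these 8 genes the 37 °C share was above both 30 °C shares, at 5.59 to 8.57 reads per 10000. With reads limited to spans of 300 to 1200 nt, none of them was called, nor was gpd3. When genes were compared within 10 equal classes of gene length, hrp1 and pst3 were not called either. No theme was tested for these 8 genes.

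**Figure D1:**
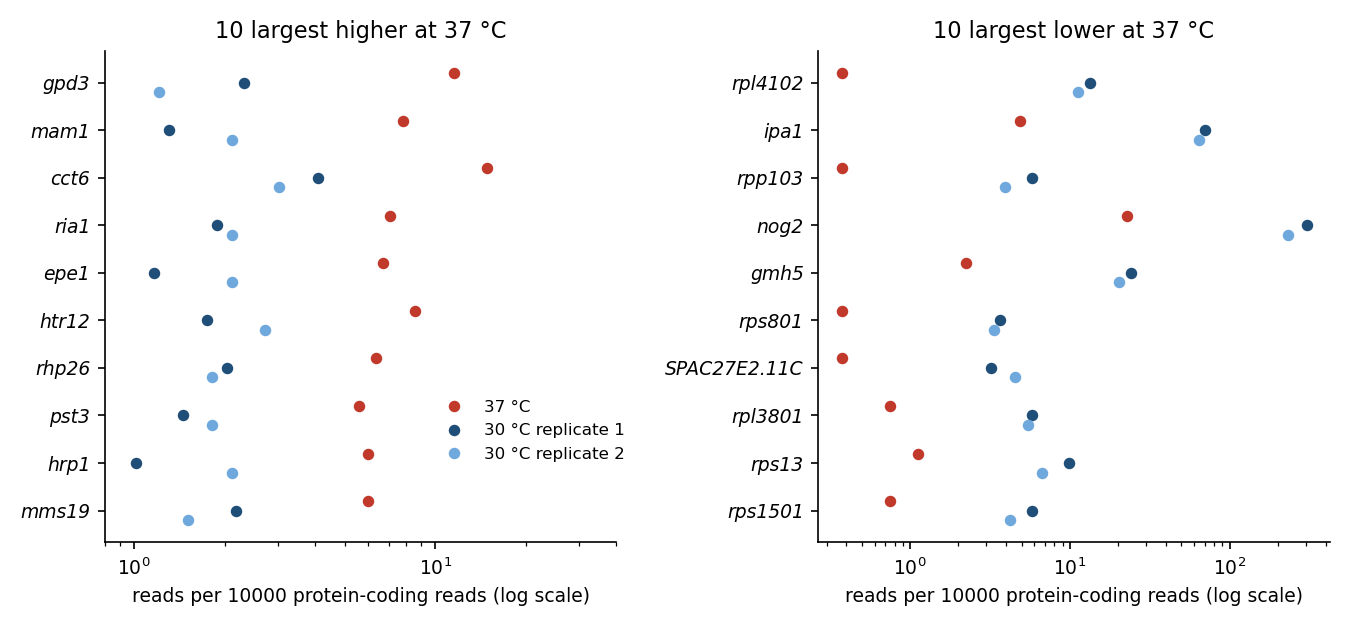
Reads per 10000 protein-coding reads (log axis) of the 10 genes with the largest smaller-of-both ratio in each direction, 1 point per library. On the left the 37 °C points sit right of both 30 °C points, from 5.59 per 10000 for pst3 to 14.9 for cct6. On the right they sit left of both, with 0.373 per 10000, which is 1 read, for rpl4102.

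Some called genes had many more reads. Alcohol dehydrogenase adh1 (chromosome III, 1591292 to 1592889, plus strand), which ends ethanol fermentation, had 576 reads at 37 °C, against 626 and 229. That was 214.7 reads per 10000 at 37 °C, against 91.0 and 69.4, ratios of 2.36 (2.10 to 2.65) and 3.10 (2.65 to 3.62). When reads were limited to spans of 300 to 1200 nt, identical alignments counted once, ratios scaled by their median, or genes compared within 10 equal classes of gene length, adh1 was no longer called. The ATP synthase beta subunit gene atp2 (chromosome I, 968507 to 970400, minus strand) had 60 reads at 37 °C, against 50 and 28, ratios of 3.08 (2.08 to 4.57) and 2.64 (1.66 to 4.29). The cell wall glucanosyltransferase gene gas2 had 121 reads at 37 °C, against 117 and 64, ratios of 2.65 and 2.33. Under the same settings gas2 was not called either.

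Most other genes of glycolysis and fermentation were not on 1 side of both 30 °C libraries. Of 20 listed genes 14 were compared, 2 were called higher and 0 lower, and 10 lay between the 30 °C libraries. The list held 5.25% of reads at 37 °C, against 4.37% and 2.75%. Without adh1 it held 3.11% at 37 °C, against 3.46% and 2.05%, on either side. Its members tdh1 (246 reads at 37 °C, against 900 and 117), pdc101 (95, against 247 and 86) and gpm1 (44, against 199 and 66) were not called.

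Ribosomal protein genes made up most of the genes lower at 37 °C. Of 135 such genes 124 were compared, 37 were called lower and 0 higher, and 102 lay below both 30 °C libraries. Their summed share was 5.44% at 37 °C (5.17 to 5.72), against 12.7% in replicate 1 (12.5 to 13.0) and 8.98% in replicate 2 (8.68 to 9.29). The ratios were 0.427 (0.404 to 0.451) and 0.606 (0.568 to 0.645), and the 30 °C libraries thus differed from each other as well. The median log2 ratio over the 124 genes was -1.62 and -1.08, beside 0.24 and 0.08 over all genes compared. Largest in size was rpl4102 (chromosome I, 2853647 to 2853931, minus strand), for the short protein eL41, with 1 read at 37 °C, against 92 and 37. The stalk protein gene rpp103 had 1 read at 37 °C, against 40 and 13. The gene rps801, for eS8, had 1 read, against 25 and 11. Reads of rpl3801, for eL38, numbered 2 at 37 °C, against 40 and 18. The gene rps13, for uS15, had 3 reads at 37 °C, against 68 and 22, and rps1501, for uS19, had 2, against 40 and 14. Reads of rps20 numbered 0 at 37 °C, against 36 and 8. With 3 reads in place of 0, its share was 4.68-fold lower at 37 °C than in replicate 1 and 2.17-fold lower than in replicate 2. With the 0 kept, the exact upper limits of the ratio of 37 °C to 30 °C were 0.277 and 0.721. Some well read members lay below both 30 °C libraries by less than 2-fold and were not called. Of these, rpl902 had 43 reads at 37 °C, against 157 and 77, which made 16.03 per 10000 at 37 °C, against 22.8 and 23.3. The gene rps7 had 48 reads at 37 °C, against 168 and 109, which made 17.9 per 10000 at 37 °C, against 24.4 and 33.0. The gene rpl3202 had 32 reads at 37 °C, against 193 and 90, and was called lower. Many ribosomal proteins of this yeast have paired gene copies of near-identical sequence, so single members are less certain than the sum. Both ubiquitin fusion genes that encode a ribosomal protein and were called, ubi3 (6 reads at 37 °C, against 108 and 23) and ubi5 (11, against 84 and 74), were lower too and are not in the list.

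**Figure D2:**
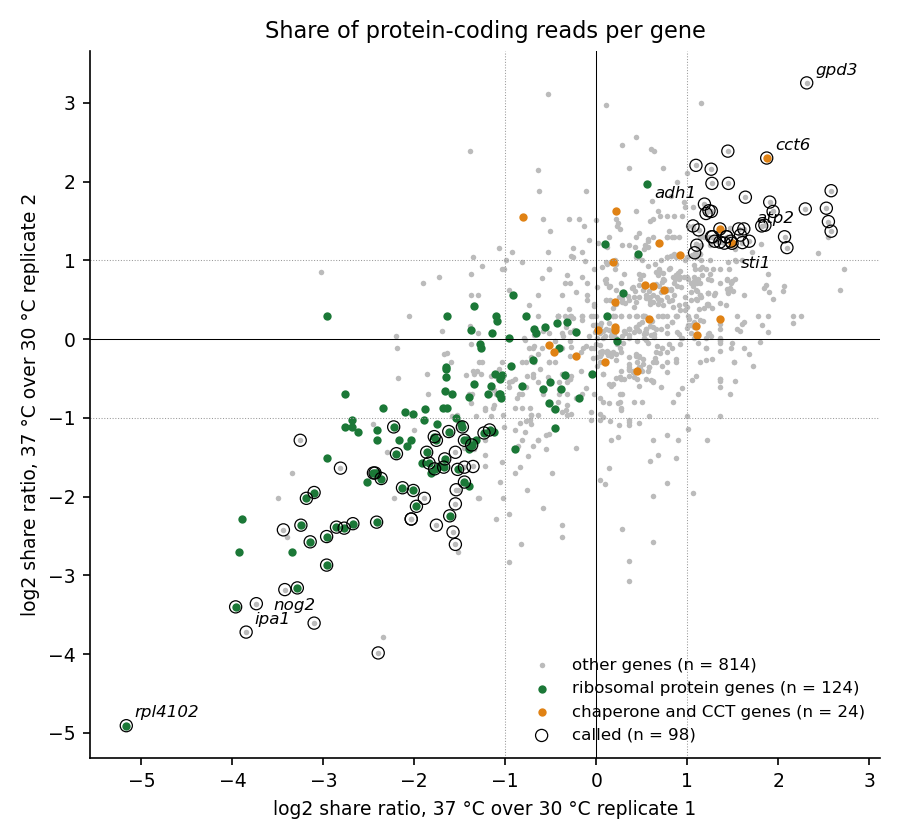
Log2 ratio of the share of protein-coding reads at 37 °C over 30 °C replicate 1 (x axis) and over replicate 2 (y axis) for 962 genes. Ribosomal protein genes (green, 124) lie mostly at the lower left, chaperone and CCT genes (orange, 24) mostly right of 0, and circles mark the called genes (42 higher, 56 lower); dotted lines are 2-fold.

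Gene length moved with these calls. Of the 56 lower genes 42 were shorter than 1000 nt, while 0 of the 42 higher genes were and 34 were at least 2000 nt long. Genes of 500 to under 1000 nt held 8.57% of reads at 37 °C, against 17.9% in replicate 1 and 13.0% in replicate 2, in the reverse order of the median read spans. Genes of at least 3000 nt held 33.5% at 37 °C, against 26.4% and 28.1%. Across the 962 genes the log2 ratio correlated with gene length, with a Spearman coefficient of 0.52 for 37 °C over replicate 1, 0.36 over replicate 2 and 0.31 for replicate 2 over replicate 1. These are descriptions across genes that share the libraries. The calls were therefore counted again with the span limited and among genes of like length.

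**Figure D3:**
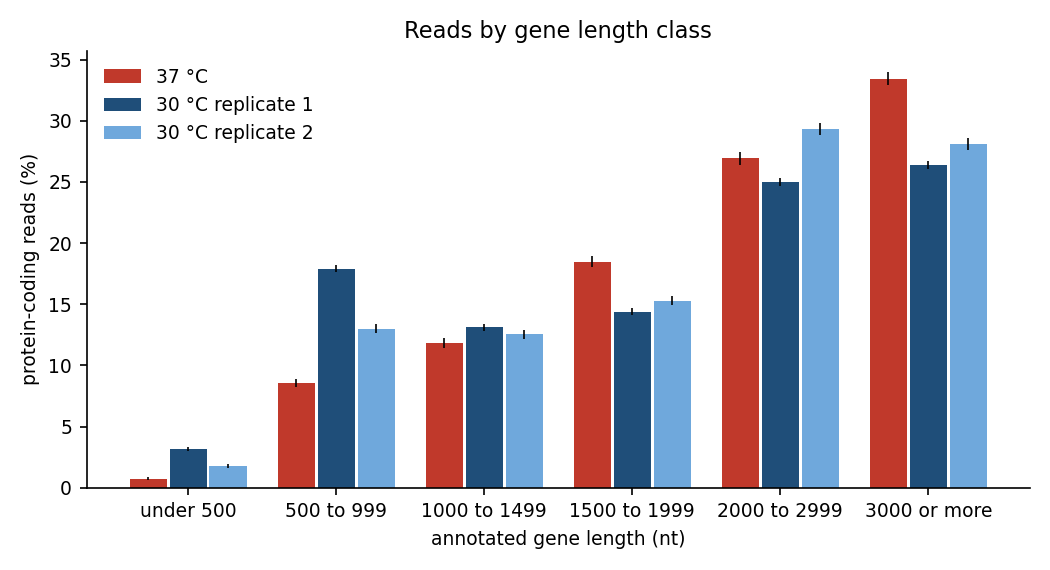
Share of protein-coding reads (%) by class of annotated gene length, with bars for 37 °C, 30 °C replicate 1 and 30 °C replicate 2 and 95% Wilson intervals as lines. The share of genes under 1000 nt is lowest at 37 °C, and that of genes of 3000 nt or more is highest there, at 33.5%.

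Within 1 length class the ribosomal protein genes still differed from the others. Of nuclear genes of 500 to under 1000 nt, 96 encode ribosomal proteins and held 3.49% of reads at 37 °C, against 9.10% and 6.71%. The other 569 held 3.50% at 37 °C, against 4.80% and 5.31%. Median log2 ratios over the members compared were -1.54 and -1.08 for 91 ribosomal protein genes and -0.82 and -0.29 for 35 others. When each gene was instead taken as a share of the reads of genes in the same 1 of 10 equal length classes, 24 genes were higher and 26 lower, and 5 ribosomal protein genes remained among the lower. Summed over the list, the log2 ratio nearer to 0 was then -0.13, beside -0.72 with the plain share. Ribosomal protein genes hold much of the reads of the short classes, so a share within these classes also takes out part of their own shift. How much of the smaller value this makes was not tested. Limiting the reads to spans of 300 to 1200 nt gave 11 genes higher and 28 lower, 17 of the lower ones ribosomal, and a log2 value of -0.54 for the list. Among the higher ones was 1 ribosomal protein gene, rpl402. Taking replicate 2 from its cell with the longest reads gave 25 higher and 34 lower, 21 of them ribosomal, and -0.61. Not all of these were calls of the plain share. Genes also called there numbered 18 higher and 17 lower for the length classes, 8 and 22 for the span limit, and 22 and 30 for the cell choice.

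Few genes were called in each of 9 ways of counting, which were the plain share, median-of-ratios scaling, nuclear chromosomes only, identical alignments once, the span limit, the length classes, both of these together, small RNA reads left out, and the longest-read cell of replicate 2. Higher in all 9 were atp2, cct6 and sti1. Lower in all 9 were nog2, pas1, pil1, rpl6, rps13 and rps2502. The cyclin gene pas1 (chromosome I, 1361133 to 1364174, plus strand) had 2 reads at 37 °C, against 27 and 39. The gene pil1, for a core protein of the eisosomes under the plasma membrane, had 11 reads at 37 °C, against 82 and 51. Both are longer than 2000 nt. The ribosomal protein gene rpl6 had 11 reads at 37 °C, against 111 and 59, ratios of 0.254 (0.123 to 0.472) and 0.229 (0.109 to 0.441). The gene rps2502 had 9 reads at 37 °C, against 167 and 58.

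Promoter letters of HomolD, CAGTCACA or TGTGACTG on the other strand, occurred in 86 of 135 ribosomal protein promoters and in 2.68% of all promoters. Of the 55 genes called lower with a promoter window, most of them ribosomal protein genes, 27 held it. Of the 42 called higher, 0 of them ribosomal protein genes, 0 did, beside the 2.68% of all promoters. The window of rpl6, chrIII:1436873-1437172, plus strand, is shown as the 1 of these 3 ribosomal genes with a match, in capitals, 57 bases before the gene start.
rpl6: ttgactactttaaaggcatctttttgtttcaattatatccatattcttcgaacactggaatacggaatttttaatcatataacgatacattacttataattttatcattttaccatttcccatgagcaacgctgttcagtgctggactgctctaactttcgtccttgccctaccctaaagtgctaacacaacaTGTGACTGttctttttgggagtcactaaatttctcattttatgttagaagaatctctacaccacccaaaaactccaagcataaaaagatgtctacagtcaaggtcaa
The windows of rps13 and rps2502 hold no exact match to these letters. Each does hold CAGTCACG, which differs from CAGTCACA only in its last letter and was not counted.

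The lower gene with the most reads, nog2, had nearly all of them over a small RNA. It encodes a GTPase of ribosome export and hosts the small nucleolar RNA snR191 (chromosome I, 2735048 to 2735175, minus strand) within its span of 2734031 to 2736208. There were 61 reads at 37 °C, against 2084 and 771, or 22.7 reads per 10000 at 37 °C, against 303.0 and 233.5. Of these, 58 at 37 °C, 2047 in replicate 1 and 742 in replicate 2 overlapped snR191, with a median span of 221 nt in each library. In replicate 1, 94.2% of the nog2 reads ended within 3 nt of 1 position, and in replicate 2 also 94.2%, beside 78.7% at 37 °C. The reads that missed snR191 numbered 3 at 37 °C, against 37 and 29. The 128-base sequence of snR191, from RefSeq ASM294v3, is shown because these reads carry the nog2 result.
snR191: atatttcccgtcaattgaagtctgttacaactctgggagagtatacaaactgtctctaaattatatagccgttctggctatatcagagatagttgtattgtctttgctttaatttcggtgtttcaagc
With such reads left out nog2 was still called lower. The gene ipa1, annotated as an mRNA processing factor, had 13 reads at 37 °C, against 480 and 211. Of these 9, 473 and 206 overlapped SPNCRNA.498, a candidate small nucleolar RNA inside the gene. The other reads numbered 4 at 37 °C, against 7 and 5, and ipa1 was not called once small RNA reads were left out. Reads of gmh5, a galactosyltransferase gene, numbered 6 at 37 °C, against 165 and 67, with a median span of 162 nt in both 30 °C libraries and 94.5% of those of replicate 1 ending within 3 nt of 1 position. No small RNA is annotated there on its strand. The last of the named lower genes, SPAC27E2.11C, has 353 nt and had 1 read at 37 °C, against 22 and 15. With nog2, the ribosome biogenesis list held 1.92% of reads at 37 °C, against 4.44% and 4.39%. Without it the list held 1.69% at 37 °C, against 1.41% and 2.05%, on either side. Of the 17 genes compared in that list, nog2 was the only one called. The nucleolin gene gar2 had 27 reads at 37 °C, against 123 and 202, nop56 of the box C/D particles had 65, against 97 and 55, and cbf5, the pseudouridine synthase gene, had 26, against 55 and 14.

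Other lists differed less. Core histone genes held 0.253% of reads at 37 °C (0.200 to 0.321), against 0.348% (0.306 to 0.394) and 0.463% (0.396 to 0.543). Of 5 compared, 0 were called and 3 lay below both, and hhf1, for histone H4, had 23 reads at 37 °C, against 49 and 53. Histone genes are short, and within length classes the list lay between the 30 °C libraries. Cytoskeletal genes held 0.533% at 37 °C, against 0.413% and 0.348%, with 1 of 6 called higher, the myosin II gene myo2 with 20 reads at 37 °C, against 12 and 11. The actin gene act1 had 67 reads at 37 °C, against 105 and 41, ratios of 1.64 and 2.01, and the tubulin gene nda3 had 20, against 24 and 12, ratios of 2.14 and 2.05 with an interval that took in 1. Splicing factor genes held 0.962% at 37 °C, against 0.683% and 0.803%. All 6 compared lay above both, as did 43.2% of all 962 genes, and 0 were called, with spp42 at 28 reads, against 29 and 23. Some of these genes are long, with 7306 nt for spp42 and 6835 nt for brr2. Genes of 3000 nt or more had median log2 ratios of 0.64 and 0.37, beside 0.97 and 0.70 for this list. Amino acid synthesis genes held 1.81% at 37 °C, against 1.52% and 1.496%, with 1 of 20 called higher, arg4, the carbamoyl-phosphate synthase gene of arginine synthesis. With median-of-ratios scaling the ratios were 0.97 and 1.47 for the cytoskeletal list and 0.89 and 1.16 for amino acid synthesis, on either side of 1. Those of the splicing factor list were 1.06 and 1.15.

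The remaining lists had no summed share on 1 side of both 30 °C libraries with both intervals. Translation factor genes held 3.05% at 37 °C, against 3.28% and 2.10%. Of 20 compared, 1 was called higher, tif307 with 15 reads at 37 °C, against 18 and 4, and tef103, an EF-1 alpha gene, had 232, against 387 and 99. Cell wall genes held 2.01% at 37 °C, against 1.33% and 1.83%, with 2 of 13 called higher. These were gas2 and bgs1, a glucan synthase gene of the septum with 69 reads at 37 °C, against 59 and 34. Sterol and lipid genes held 1.03% at 37 °C, against 1.40% and 0.987%, with 1 of 12 called lower, the fatty acid elongase gene elo1 with 5 reads at 37 °C, against 35 and 19. Transporter genes held 0.779% at 37 °C, against 0.627% and 0.945%, and 0 of 8 were called. Nuclear respiratory genes held 0.582% at 37 °C, against 0.516% and 0.709%, with atp2 higher and qcr1 lower among 5 compared. Proteasome and ubiquitin genes held 0.604% at 37 °C, against 0.547% and 0.588%, with 1 of 5 called higher, the regulatory subunit gene rpn2 with 18 reads at 37 °C, against 19 and 9. Mating and meiosis genes held 0.280% at 37 °C, against 0.109% and 0.230%, with mam1 the only one of 4 called. Tf2 retrotransposon genes had 1 read in all at 37 °C, against 6 and 2, and were not compared.

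**Figure D4:**
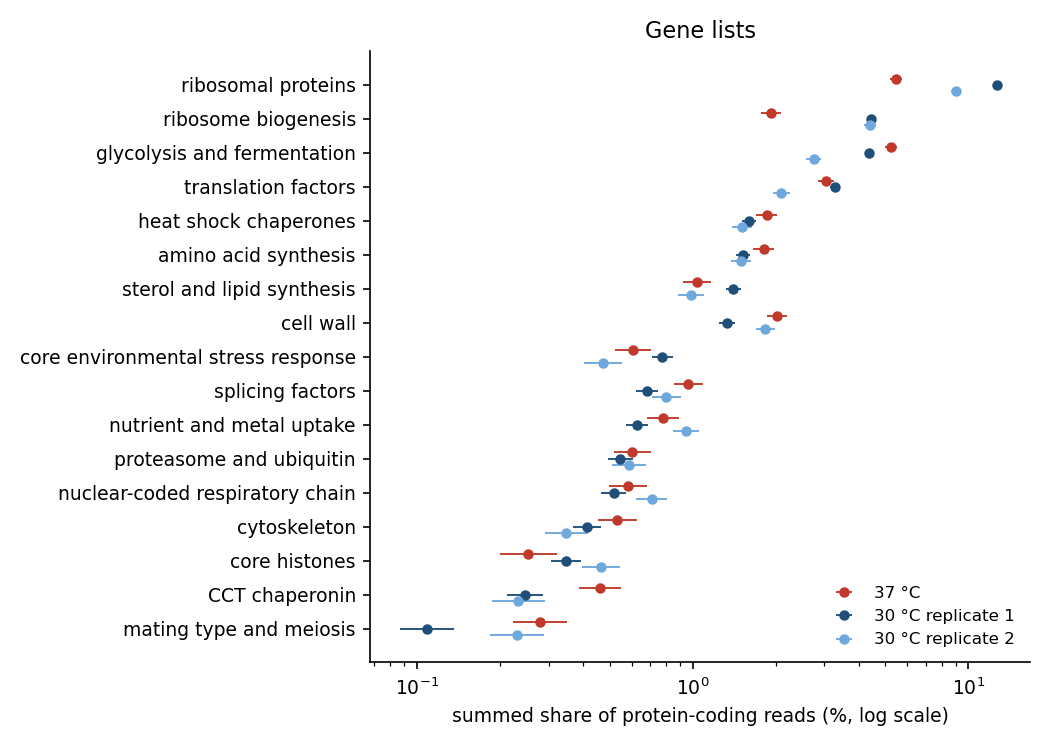
Summed share of protein-coding reads (%, log axis) of 17 gene lists, 1 point per library with its 95% Wilson interval. At 37 °C the ribosomal protein point (5.44%) lies left of both 30 °C points and the CCT point (0.462%) right of both, while the points of several lists, among them translation factors and the stress response, lie between the 30 °C points.

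The second question was where transcripts ended. At 37 °C 7.44% of protein-coding reads had a 3′ end over 100 nt downstream of the annotated gene (95% Wilson interval 7.13 to 7.76), against 3.51% in replicate 1 (3.37 to 3.65) and 4.85% in replicate 2 (4.62 to 5.09). The difference was 3.93 percentage points against replicate 1 (Newcombe interval 3.59 to 4.27) and 2.59 against replicate 2 (2.20 to 2.98). Against the longest-read cell of replicate 2 alone it was 0.814 points (0.330 to 1.29). Ends more than 500 nt past the gene end made up 1.70% at 37 °C, against 0.30% and 0.45%. Within genes, the Mantel-Haenszel odds ratio of a downstream end was 2.76 against replicate 1 (2.57 to 2.96) and 2.30 against replicate 2 (2.11 to 2.50). Between the 30 °C libraries, replicate 2 over replicate 1, it was 1.47 (1.36 to 1.58). At the other end, 3.28% of reads at 37 °C ended in the first 300 nt of the gene, against 14.5% and 9.98%.

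Among reads of like span, the difference in downstream ends did not keep its sign. Of reads spanning 600 to under 1200 nt, 7.14% ended downstream at 37 °C (6.70 to 7.61), against 6.60% and 7.24%. Of reads of 1200 nt or more, 11.1% did at 37 °C, against 13.6% and 10.4%. With genes and 100-nt classes of span as strata, the odds ratio was 0.81 against replicate 1 (0.69 to 0.94) and 1.08 against replicate 2 (0.90 to 1.28), with opposite signs. A read of longer span can reach further past the gene end, and 33.7% of the 37 °C reads spanned at least 1200 nt, against 2.81% and 5.19%. For ends in the first 300 nt the same strata gave 1.32 (1.14 to 1.52) and 1.39 (1.16 to 1.67), where all reads within genes had given 0.19 and 0.32. The 30 °C libraries differed within these strata as well. Replicate 2 over replicate 1 gave 0.69 (0.60 to 0.78) for downstream ends and 1.13 (1.05 to 1.21) for ends in the first 300 nt.

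**Figure D5:**
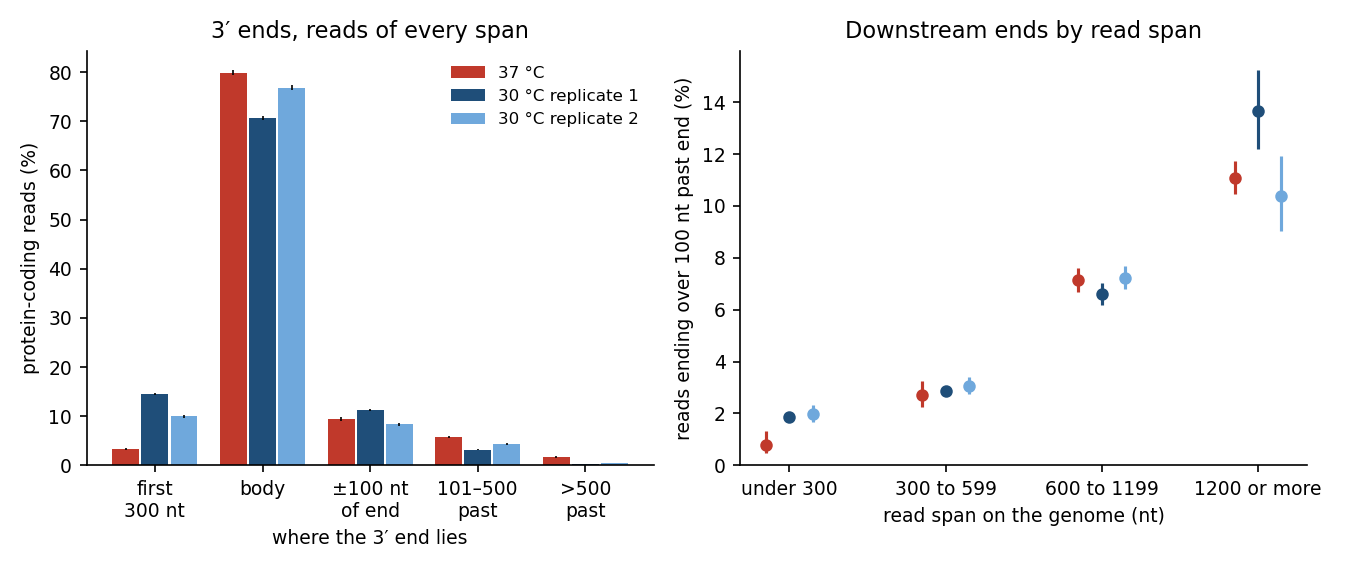
Left, share of protein-coding reads (%) by where the 3′ end lies, in bars for 37 °C, 30 °C replicate 1 and 30 °C replicate 2. Right, share of reads ending over 100 nt past the gene end (%) by read span in nt; lines are 95% Wilson intervals, and the 3 libraries lie at 7.14%, 6.60% and 7.24% for spans of 600 to under 1200 nt.

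As a share of all reads, ends within 100 nt of the annotated gene end lay between the 30 °C libraries. They made up 9.43% of reads at 37 °C (9.08 to 9.78), against 11.3% in replicate 1 (11.1 to 11.5) and 8.31% in replicate 2 (8.02 to 8.62). Within genes, the Mantel-Haenszel odds ratio of such an end was above 1 against both, at 1.54 for replicate 1 (1.46 to 1.64) and 1.29 for replicate 2 (1.20 to 1.38). With 100-nt classes of span as further strata it was 0.90 (0.80 to 1.00) and 0.94 (0.83 to 1.07). Over genes of at least 1000 nt they made up 7.24% at 37 °C, against 5.76% and 4.65%.

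Of 132 genes with at least 20 reads in each library, 64 had a larger share of downstream ends at 37 °C than in both 30 °C libraries and 9 a smaller one. Against both with intervals that left out 0, 9 were higher (6.82%) and 0 lower (0%). The median downstream share over the 132 genes was 2.52% at 37 °C, against 1.04% and 0%. With shares so low at 30 °C, a gene could hardly be called lower, so the counts of both sides cannot be compared. The largest difference was in gpm1, the phosphoglycerate mutase gene, of 791 nt, with 15 of 44 reads at 37 °C ending downstream, against 3 of 199 in replicate 1 and 0 of 66 in replicate 2. Among its reads of 600 to under 1200 nt this was 12 of 29 at 37 °C, against 2 of 43 and 0 of 28. Median spans of gpm1 reads were 751 nt at 37 °C, against 366 and 537.5 nt, and finer classes of span were not tested for single genes. Next was hhf1 with 13 of 23 at 37 °C, against 8 of 49 and 15 of 53, and within that span 8 of 13 at 37 °C, against 5 of 15 and 13 of 34. The mitochondrial gene atp6 had 29 of 99 at 37 °C, against 27 of 504 and 2 of 61, and within that span 6 of 52 at 37 °C, against 10 of 118 and 2 of 29. The ribosomal protein gene rpl1202 had 14 of 34 at 37 °C, against 3 of 109 and 7 of 36. Within that span it had 10 of 25 at 37 °C, against 2 of 47 and 6 of 16, so that its share at 37 °C was close to that of replicate 2, at 37.5%. For rpl902 the counts were 10 of 43 at 37 °C, against 9 of 157 and 0 of 77, and within that span 7 of 31 at 37 °C, against 8 of 62 and 0 of 40. At rps7, also called, 6 of 48 reads ended downstream at 37 °C, against 1 of 168 and 0 of 109. The 5 genes furthest below both 30 °C libraries were not called. They were ssc1 (0 of 30 at 37 °C, against 3 of 76 and 2 of 34), not1 (0 of 23, against 4 of 41 and 1 of 27), atp2 (2 of 60, against 3 of 50 and 3 of 28), SPAP8A3.07C (0 of 30, against 1 of 38 and 1 of 31) and chc1 (0 of 31, against 1 of 80 and 1 of 36).

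Over the whole ribosomal protein list, 19.0% of reads ended downstream at 37 °C, against 3.6% and 11.9%. Of its reads of 600 to under 1200 nt these were 30.0% at 37 °C (26.7 to 33.6), against 13.1% (11.5 to 14.9) and 24.5% (22.1 to 27.1). The intervals of 37 °C and replicate 2 thus overlapped, while those of the 30 °C libraries did not. The highest share by list at 37 °C was that of the core histones, with 29.4%, or 20 of 68 reads (19.9 to 41.1), against 7.5% and 14.4%. Of histone reads of 600 to under 1200 nt, 31.7% ended downstream at 37 °C (19.6 to 47.0), against 13.2% (6.5 to 24.8) and 25.0% (16.6 to 35.8), with overlapping intervals.

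In 8 of the 132 genes (6.06%) the share within 100 nt of the end was above both 30 °C libraries with intervals that left out 0. In 0 (0%) it was below both. The median of this share over the 132 genes was 3.79% at 37 °C, against 2.99% and 2.84%, so there was little room for a lower call. The 8 genes were adh1, tdh1, tef103, cox3, clg1, atd1, rps601 and nog2. In adh1, 163 of 576 reads ended there at 37 °C, against 71 of 626 and 25 of 229. Of these, 87 at 37 °C, 39 in replicate 1 and 17 in replicate 2 ended within 3 nt of the annotated end, which is 15.1% of adh1 reads at 37 °C, against 6.23% and 7.42%. For tdh1 the counts within 100 nt were 61 of 246 at 37 °C, against 68 of 900 and 5 of 117, and for tef103 56 of 232, against 31 of 387 and 9 of 99. These 3 genes are 1457 to 1598 nt long, and their reads had median spans of 1115 to 1275 nt at 37 °C, against 360 to 429 nt in replicate 1. In replicate 2 it was 504 nt for tdh1 and 580 nt for tef103. A read that starts near the gene start must span most of these genes to end there. In that span tdh1 lay above both, with 7 of 99 at 37 °C, against 10 of 177 and 2 of 43. So did clg1 (2 of 15, against 0 of 2 and 0 of 32) and nog2 (1 of 3, against 0 of 10 and 0 of 21), on few reads. In atd1 the 37 °C share lay between, and rps601 had 0 such ends in each library. These 8 genes, and rps7 above, were picked after their values were seen.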

How the data were processed

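Nascent RNA was read as long cDNA on a Pacific Biosciences instrument. Per the labels' protocols, polyadenylated RNA and rRNA were removed, a DNA adaptor was ligated to 3′ ends, and low-cycle PCR followed. Per the submitters' processing notes, cutadapt 1.8 was used. The aligner and genome build are not given in the sources used here. The deposited files hold 1 line per aligned read, with start and end positions (no unit of expression, not normalised) and a score column that the authors left at 40 in every line, which was not used. The random bases of the adaptor were not used here, and PCR copies were therefore kept except in the alternative that counts identical alignments once.

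Reads were set against the ASM294v3 annotation of RefSeq. Of gaps of at least 20 nt, 93.6% at 37 °C, 91.9% in replicate 1 and 87.7% in replicate 2 matched an annotated intron exactly. A read went to the gene on its strand with the largest overlap of aligned blocks (at least 20 nt), among all annotated genes. A count of 0 was set to 3 reads for ratios. Intervals were exact conditional binomial for ratios, Wilson for shares, Newcombe for differences and Robins-Breslow-Greenland for Mantel-Haenszel odds ratios, all at 95%. PCR copies are not independent molecules, so intervals cover counting error only. Calls were tested on simulated data. Python 3.11.15, numpy 2.4.6, scipy 1.17.1 and pandas 2.3.3 were used.

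Genes were drawn by rule for naming: up to 10 called in each direction with the largest smaller-of-both ratio, the 4 members of each list with the most reads, and 5 genes each way for downstream ends. Other genes were named after their values were seen. The comparison and the 18 gene lists were chosen with earlier results of these data known, and 22 symbols that name other genes, fusion genes or mitochondrial genes were removed from lists after the files were read. Alternatives covered read minimum, fold, scaling, duplicates, read span, shared read names, single 30 °C libraries and gene ends, and, chosen after seeing the data, 10 length classes, small RNA reads, the longest-read cell, span strata and lists without 1 member. One result is not reported here.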

Additional observations from a re-analysis of the deposited data

How the results depend on the processing

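With 42 genes higher and 56 lower as reported, a minimum of 10 reads gave 61 higher and 56 lower, and one of 100 reads 5 and 26. A 1.5-fold line gave 60 and 59, a 3-fold line 8 and 33, and size without intervals 68 and 107. The minimum counts the reads of the 3 libraries together, so a gene low at 37 °C can pass on its 30 °C reads. An example is rpl39, called lower with 0 reads at 37 °C, against 21 and 9. Median-of-ratios scaling gave 20 higher. Spans of 300 to 1200 nt gave 11 and 28, length classes 24 and 26, both together 9 and 20, and the longest-read cell of replicate 2 gave 25 and 34. In the same order, 8 and 22, 18 and 17, 6 and 10, and 22 and 30 of these were among the genes called as reported. Using a single 30 °C library gave 90 to 142 higher and 100 to 154 lower. Of 18 lists, 9 had a summed share with both intervals on 1 side of 1. This number was 4 with median-of-ratios scaling, 5 with identical alignments once, 3 with the span limit, 5 with length classes, 4 with span and length classes together, and 12 to 14 against a single 30 °C library. For the heat shock chaperones the log2 ratio nearer to 0 was 0.22, and an interval took in 1 at 0.11 (nuclear chromosomes only), 0.12 (identical alignments once), 0.094 (span limit), 0.043 (span and length classes) and 0.15 (small RNA reads left out), while with median-of-ratios scaling the ratios lay on both sides, given as 0. The ribosomal protein list kept its direction and call in all of its alternatives.

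The smaller difference in downstream ends, 2.59 points, was 0.759 points (0.298 to 1.23) with spans of 300 to 1200 nt, 0.814 points (0.330 to 1.29) with the longest-read cell of replicate 2, 3.33 points with genes weighted equally and 2.59 to 3.93 against single libraries. Its log2 odds ratio of 1.20 became 0, with signs that differ, within span classes. Ends within 100 nt of the gene end differed by -1.88 to 1.11 points against single libraries, by 1.48 over genes of at least 1000 nt and by 0.949 with genes weighted equally. Their log2 odds ratio of 0.37 was -0.089 within span classes. Fewer reads were kept under the span limit and the cell choice, and beyond that the cause was not tested. Of single-gene values under these alternatives, 281 lost their call, 40 gained one, 0 reversed and the rest kept theirs. No paired analysis was possible because 37 °C has 1 library. Depth limits most genes: 962 of 5124 had enough reads.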

Other observations

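Several host genes of small RNAs that were not called had a single 3′ end position holding much of their reads, in shares that differed between libraries. In rpl701, which spans the small nucleolar RNA snoR39b, 151 of 181 reads at 37 °C ended within 3 nt of 1 position, against 162 of 316 in replicate 1 and 5 of 57 in replicate 2. In cpc2, the host of snoU24b, this was 28 of 47 at 37 °C, against 115 of 253 and 1 of 26. In rlp7, the host of snoR39a, it was 11 of 12 at 37 °C, against 34 of 63 and 2 of 8. In fta3, the host of snoR47, it was 18 of 20 at 37 °C, against 98 of 131 and 3 of 12. In pop5, with no small RNA annotated at the position, it was 34 of 37 at 37 °C, against 234 of 247 and 20 of 31. The most used position was taken in each library separately.

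Mitochondrial genes held 3.50% of protein-coding reads at 37 °C, against 10.2% in replicate 1 and 2.41% in replicate 2, so the 30 °C libraries lay on either side. Reads on genes of small RNAs made up 6.50% of all reads at 37 °C, against 31.2% and 11.4%. Of the protein-coding reads at 37 °C, 2727 carry a read name that also occurs in the prp2-1 library. With these left out, 48 genes were higher and 59 lower, of which 39 and 49 were also called with them.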
